A study of Homo sapiens with 21 samples.

Results

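Hypoxia and glycolysis genes were examined as a set of 40 genes chosen by symbol, out of 20597 genes named in at least 1 of the 3 deposited tables. All 40 had an entry in each table. The set held the HIF alpha subunits and their hydroxylases, known target genes of HIF, and the enzymes and transporters of glycolysis and lactate export. The cells were human lung epithelial cells that shared a parental background and were grouped by the chromosome arm altered. The groups were 3p loss cells, which had lost the short arm of chromosome 3, 3q gain cells, which had gained its long arm, and their chromosome 3 WT cells, each with 3 mRNA libraries. Ribosome-protected fragments (RPF, or footprints) were sequenced from 3p loss cells and from cells labelled 3p WT, with 3 libraries each. A separate set held 8p loss cells and 8p WT cells, with 3 mRNA libraries each. The named arm was not the only one whose levels differed between groups. Genes on 10p had a median log2 fold change of -0.91 in 3p loss footprints and 0.79 in 8p loss mRNA. The line's name, any engineered allele that all groups carry and the number of clones behind each genotype are not stated in the labels.

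Hypoxia-inducible factor (HIF) is a transcription factor made of an oxygen-regulated alpha subunit and a stable partner. In the presence of oxygen, prolyl hydroxylases modify the alpha subunit, and the VHL protein, encoded on 3p, then recruits it to a ubiquitin ligase for degradation. Cells that lack VHL protein altogether are known for stable HIF and high levels of its targets, among them secreted factors such as VEGFA, carbonic anhydrases, collagen-modifying enzymes and most enzymes of glycolysis. Glycolysis converts glucose to pyruvate in the cytosol, and pyruvate is either oxidised in mitochondria or reduced to lactate and exported. The comparisons below address whether these genes differed in cells with a lower dose of VHL, at the level of mRNA and of footprints, and in cells with other arm changes.

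HIF binds DNA at a core spelt ACGTG or GCGTG, read on either strand. RefSeq windows of GRCh38.p14, from 250 bases before to 50 bases after a gene's start, were matched for 37 of the 40 genes. VEGFA, NDRG1 and SLC2A3 were not matched. ACGTG or its reverse complement CACGT lay in a window of 22 of the 37 genes (59.5%), against 32.7% of the 9220 tested genes with a window. Counted by window, it lay in 41.8% of the 67 windows of the set and in 25.6% of all 13476 windows. GCGTG or CACGC lay in 62.2% of the 37 genes and 59% of all such genes. The set was built from known HIF targets, so these shares describe it and test nothing. Windows are shown for 4 genes whose mRNA was lower in 3p loss cells (ANGPTL4, HK2, SLC16A3 and P4HA1) and for PGK1, a textbook HIF target whose mRNA was not called changed there. Where several windows were listed, as for SLC16A3 (5) and HK2 (2), the first that held an ACGTG or CACGT match is printed, so the printed windows were chosen for a match. The letters in capitals are the ACGTG or CACGT matches. The windows are ANGPTL4 at chr19:8363905-8364204 on the plus strand, HK2 at chr2:74833877-74834176 on the plus strand, SLC16A3 at chr17:82228792-82229091 on the plus strand, P4HA1 at chr10:73096817-73097116 on the minus strand and PGK1 at chrX:78103998-78104297 on the plus strand.
ANGPTL4: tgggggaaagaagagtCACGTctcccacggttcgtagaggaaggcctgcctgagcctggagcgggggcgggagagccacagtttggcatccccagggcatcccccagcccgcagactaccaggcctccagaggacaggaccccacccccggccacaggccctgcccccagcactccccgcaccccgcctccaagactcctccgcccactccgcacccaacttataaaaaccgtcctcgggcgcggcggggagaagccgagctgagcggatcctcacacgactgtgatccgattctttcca
HK2: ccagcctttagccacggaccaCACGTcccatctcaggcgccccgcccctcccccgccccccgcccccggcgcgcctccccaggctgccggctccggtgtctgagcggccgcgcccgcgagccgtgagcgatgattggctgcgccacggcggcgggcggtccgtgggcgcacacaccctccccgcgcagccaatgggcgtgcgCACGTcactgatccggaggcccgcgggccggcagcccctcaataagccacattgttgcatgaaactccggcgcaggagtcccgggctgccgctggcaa
SLC16A3: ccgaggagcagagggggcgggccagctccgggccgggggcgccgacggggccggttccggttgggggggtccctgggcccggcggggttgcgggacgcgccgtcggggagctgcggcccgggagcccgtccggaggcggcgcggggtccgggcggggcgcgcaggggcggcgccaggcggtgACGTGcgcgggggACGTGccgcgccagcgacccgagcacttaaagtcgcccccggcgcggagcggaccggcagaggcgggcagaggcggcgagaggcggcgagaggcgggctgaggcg
P4HA1: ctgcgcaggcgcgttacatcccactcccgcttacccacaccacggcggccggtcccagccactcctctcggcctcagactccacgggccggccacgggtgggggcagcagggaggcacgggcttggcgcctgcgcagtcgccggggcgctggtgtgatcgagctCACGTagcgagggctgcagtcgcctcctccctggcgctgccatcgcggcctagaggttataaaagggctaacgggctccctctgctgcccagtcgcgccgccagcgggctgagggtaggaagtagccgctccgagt
PGK1: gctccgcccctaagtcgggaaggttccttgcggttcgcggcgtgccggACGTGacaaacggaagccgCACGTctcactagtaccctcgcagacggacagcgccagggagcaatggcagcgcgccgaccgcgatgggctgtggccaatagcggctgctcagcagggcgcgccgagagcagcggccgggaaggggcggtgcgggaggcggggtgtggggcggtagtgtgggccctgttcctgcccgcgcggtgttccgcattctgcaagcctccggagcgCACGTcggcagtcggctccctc
These 5 windows held 1, 2, 2, 1 and 3 matches, in the order printed. Of the 8 genes lower in 3p loss mRNA that had a window, 5 held an ACGTG or CACGT match. A match is a description of the letters in the window and does not show that HIF bound there.

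Footprint libraries held 4622326 to 13607875 counts, and the mRNA columns, taken as TPM (transcript levels scaled for length and library size), summed to between 861114 and 916783. All 8 epithelial markers examined had a mean of at least 1 in every group. The summed epithelial markers ran from 4435 to 4610 TPM in 8p loss libraries, against 11805.5 to 12376.5 TPM in 8p WT libraries. In 3p loss mRNA they ran from 14639.8 to 24565.1 TPM, against 9660.7 to 15724 TPM in WT, with overlap. In footprints their sum was lower in 3p loss, at 8914.7 to 9937.7 CPM against 11331.9 to 11451.7 CPM in 3p WT. KRT5 made up most of that sum, at a mean of 5526.6 CPM in 3p loss and 7391.9 CPM in 3p WT. Single epithelial genes went both ways in footprints. Log2 fold changes were -0.42 for KRT5, -0.57 for KRT18 and -1.26 for ITGB4. They were 1.87 for EPCAM, 0.55 for CDH1, 0.68 for KRT8 and 0.56 for KRT17, and -0.03 for TP63. In 3p loss mRNA the endothelial list summed to 3.42 to 14.4 TPM, against 0.369 to 0.737 TPM in WT. The VEGF receptor gene KDR made up nearly all of the 3p loss sum, at 4.05, 3.38 and 14.3 TPM, while PECAM1, CDH5, VWF and TEK were at or near 0. The fibroblast list summed to 8.06 to 124 TPM in 3p loss mRNA, against 5.19 to 6.38 TPM in WT, and its gene DCN was at 75.8, 2.96 and 114 TPM in 3p loss and 2.58, 1.75 and 1.61 TPM in WT. The footprint sums of the endothelial and fibroblast lists, unlike those of the epithelial list, were higher in 3p loss. They were 10.1 to 13.2 CPM in 3p loss and 1.12 to 1.68 CPM in 3p WT for the endothelial list. For the fibroblast list they were 62.9 to 72.8 CPM in 3p loss and 22.4 to 24.2 CPM in 3p WT. Whether these marker levels bear on the changes below was not tested. In bulk samples such as these, fewer cells of a type and less RNA per cell cannot be told apart. On chromosome 10, the second WT mRNA library stood apart, with a median 10q gene at -0.64 (log2 difference from the WT mean) against 0.27 and 0.37 in the other WT libraries, so called or named changes of HK1, PGAM1, P4HA1 and BNIP3 against WT are also given without it.

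In 3p loss mRNA, none of the 40 genes was higher and 11 were lower than in WT (27.5% of the set). By the same call, 15% of the 11225 genes tested changed, 6.17% higher and 8.8% lower. A change was called where the Benjamini-Hochberg adjusted p of limma, over all genes tested, was under 0.05. At an unadjusted p under 0.05 the counts were 1 higher and 16 lower. The median of the 40 log2 fold changes was -0.27, against 0.01 over all genes tested. Below, changes and fold changes are given as log2 values. The 11 were both HIF alpha subunits, CA12, the secreted factors VEGFA and ANGPTL4, NDRG1, P4HA1, the glucose transporter gene SLC2A3, HK2, PDK1 and the lactate exporter gene SLC16A3. Of 14 hypoxia response genes outside glycolysis, 5 were lower, and of 22 genes of glycolysis and lactate export, 4 were lower. None of the 15 genes of upper and lower glycolysis, from GPI to PKM, was among the 11. Leaving out any 1 library left 6 to 11 of the set lower. The count was 6 without the first 3p loss library.

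**Figure D1:**
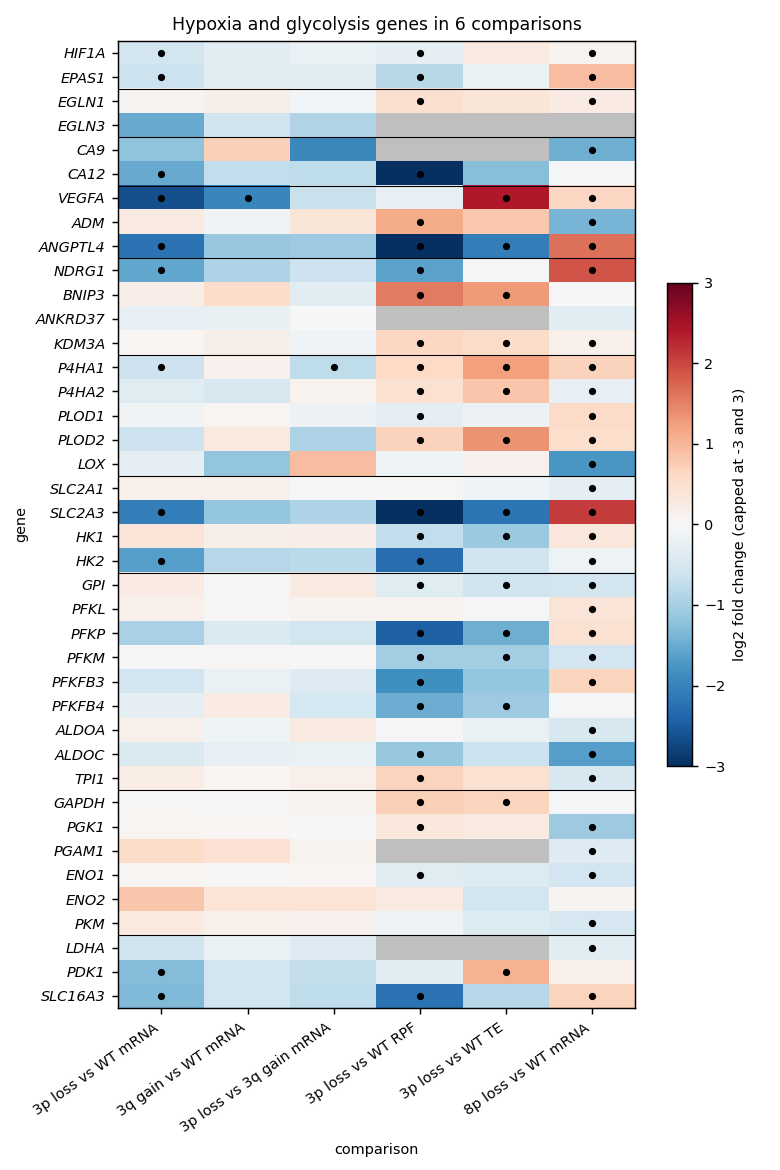
Heat map of the log2 fold change of the 40 genes (rows, grouped by role) in 6 comparisons (columns). Dots mark calls at adjusted p under 0.05 and grey marks genes not tested. The column for 3p loss mRNA holds 11 dots, all on lower genes, while the columns for 3p loss RPF and 8p loss mRNA hold dots in both directions.

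VHL, which lies on 3p, had lower mRNA in 3p loss cells. It stood at 16.6, 18.3 and 17.0 TPM in 3p loss libraries, 27.9, 35.1 and 38.8 TPM in 3q gain libraries and 31.0, 35.9 and 34.0 TPM in WT libraries. Every 3p loss library was below every library of the other groups. The log2 fold change, on the scale of log2(TPM + 1), was -0.92 ± 0.14 (SE) against WT (limma adjusted p = 0.00341), close to the median of -0.89 for other tested genes within 5 Mb. Against 3q gain it was -0.92 ± 0.14 (adjusted p = 0.00835).

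The mRNAs of both HIF alpha subunits were lower in 3p loss cells. HIF1A encodes the widely expressed alpha subunit. Its mRNA was at 115, 114 and 136 TPM in 3p loss cells, 149.8, 141 and 130.1 TPM in 3q gain cells and 183, 164 and 184 TPM in WT cells. The 3p loss and WT libraries did not overlap, and the change was -0.54 ± 0.11 (limma adjusted p = 0.0113). EPAS1, which encodes the alpha subunit more restricted to endothelial and epithelial tissues, was at 53.6, 72.5 and 50.1 TPM in 3p loss cells, 79.1, 82.8 and 58.1 TPM in 3q gain cells and 86.7, 83.0 and 103 TPM in WT cells. These 3p loss and WT values did not overlap either, and the change was -0.64 ± 0.18 (adjusted p = 0.0438). This call was lost under 12 of 18 other settings, where its adjusted p reached 0.131. The prolyl hydroxylases were not called. EGLN1, the main oxygen-sensing enzyme of the family, was at 29.9, 28.5 and 29.2 TPM in 3p loss cells and 24.5, 32.3 and 26.0 TPM in WT cells. EGLN3, a hydroxylase that is itself a HIF target, was at 0.703, 0.124 and 0.216 TPM in 3p loss cells and 1.85, 11.2 and 0.562 TPM in WT cells, where 1 of 3 libraries held most of the signal.

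Of the membrane carbonic anhydrases, which hydrate carbon dioxide outside the cell, CA12 was lower in 3p loss cells and CA9 was not called. CA12 was at 7.13, 7.50 and 12.7 TPM in 3p loss, 12.7, 21.5 and 14.1 TPM in 3q gain and 19.0, 43.0 and 24.0 TPM in WT libraries. No 3p loss library reached the lowest WT library, and the change was -1.51 ± 0.32 (limma adjusted p = 0.0142). It did not pass without the first 3p loss library (adjusted p = 0.0566). CA9 was at 1.93, 0.372 and 1.47 TPM in 3p loss, 4.50, 8.82 and 8.98 TPM in 3q gain and 6.85, 5.39 and 1.43 TPM in WT libraries. The third WT library lay within the 3p loss range, and CA9 was not called against WT (adjusted p = 0.115) unless that library was left out (adjusted p = 0.0296).

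Of the secreted factors, VEGFA and ANGPTL4 were lower and ADM was not called. VEGFA, the main signal for blood vessel growth, was at 11.9, 7.46 and 13.1 TPM in 3p loss, 20.8, 12.1 and 20.9 TPM in 3q gain and 32.5, 101 and 106 TPM in WT libraries. Its 3p loss change of -2.63 ± 0.43 (limma adjusted p = 0.00405) was the largest of the 40 genes on the log2(TPM + 1) scale. At a pseudocount of 0.1 it was -2.73, behind -3.76 for SLC2A3 and -3.60 for ANGPTL4. The first WT library lay below the other WT libraries and above all 3q gain libraries. ANGPTL4, an inhibitor of lipoprotein lipase, was at 0.887, 0.455 and 0.102 TPM in 3p loss, 3.41, 2.80 and 0.760 TPM in 3q gain and 6.42, 8.18 and 3.53 TPM in WT libraries. The change was -2.22 ± 0.41 (adjusted p = 0.00695), which understates the difference of so low a gene on this scale. ADM, a vasodilator peptide, was at 55.6, 54.6 and 73.9 TPM in 3p loss and 47.3, 81.2 and 33.5 TPM in WT libraries, with overlapping groups.

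Among intracellular targets, NDRG1, a protein induced by hypoxia and other stresses, was at 111, 103 and 97.5 TPM in 3p loss, 128, 249 and 127 TPM in 3q gain and 233, 594 and 205 TPM in WT libraries. All 3p loss libraries were below all WT libraries. The change was -1.55 ± 0.38 (limma adjusted p = 0.026), and the call was lost when any 1 of the 3p loss libraries was left out (adjusted p = 0.0622 to 0.0695). BNIP3, a mitophagy receptor, was at 80.9, 74.0 and 74.4 TPM in 3p loss and 83.7, 60.5 and 56.5 TPM in WT libraries. Its log2 fold change was 0.21 over all libraries and 0.15 without the second WT library. KDM3A, a histone demethylase, was at 19.1, 17.3 and 18.2 TPM in 3p loss and 18.6, 20.6 and 14.2 TPM in WT libraries. ANKRD37, a small ankyrin-repeat protein known as a HIF target, was at 2.84, 2.69 and 1.63 TPM in 3p loss and 3.51, 4.15 and 1.66 TPM in WT libraries. These 3 genes overlapped between 3p loss and WT.

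Enzymes that modify collagen in the secretory pathway were called for 1 of 5 genes. P4HA1, a catalytic subunit of collagen prolyl hydroxylase, was at 21.5, 25.4 and 29.0 TPM in 3p loss, 44.2, 48.0 and 38.2 TPM in 3q gain and 43.6, 35.8 and 38.9 TPM in WT libraries. All 3p loss values lay below all values of the other groups. The change against WT was -0.63 ± 0.15 (limma adjusted p = 0.0215), and it was -0.69 (adjusted p = 0.0289) without the second WT library. It did not pass without the first or the third WT library or the first 3p loss library (adjusted p = 0.0569 to 0.0721). Its paralog P4HA2 had a fold change of -0.37 ± 0.19, the lysyl hydroxylase PLOD1 -0.11 ± 0.14 and PLOD2 -0.63 ± 0.25. PLOD2 lies on 3q, at chr3:146069440-146161184, and was at 36.2, 47.9 and 51.6 TPM in 3p loss, 72.5, 117 and 73.8 TPM in 3q gain and 71.2, 92.9 and 51.6 TPM in WT libraries. LOX, which cross-links collagen, ranged from 1.04 to 39.7 TPM among the 3p loss libraries and 1.61 to 19.8 TPM among the WT libraries, so the groups overlapped.

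**Figure D2:**
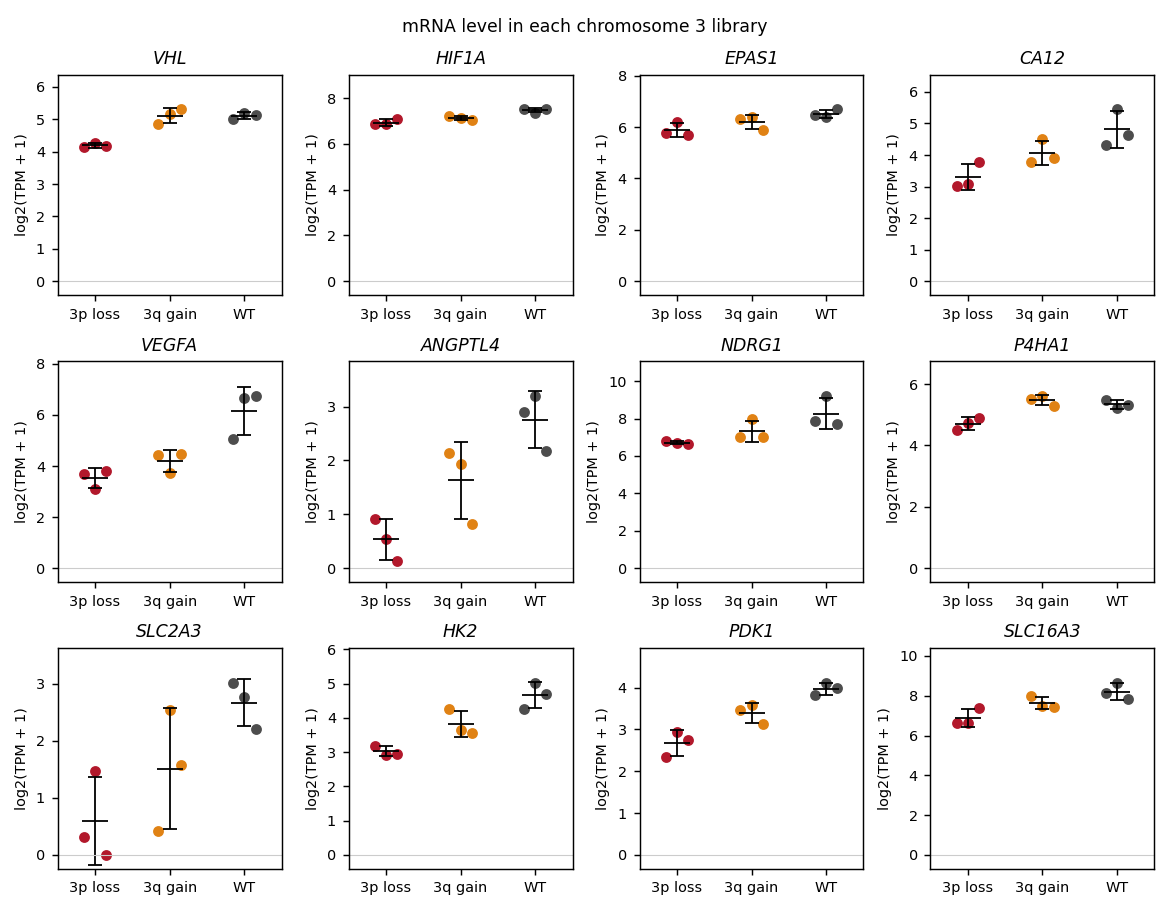
mRNA level, log2(TPM + 1), of VHL and the 11 genes lower in 3p loss, in each library of the 3p loss, 3q gain and WT groups. Points are libraries, the horizontal bar is the mean and the error bar is the SD of 3 libraries. In each panel every 3p loss library lies below every WT library, and for 10 of the 11 genes the 3q gain mean lies between the means of 3p loss and WT. The 11 genes were picked for low 3p loss values against these same WT libraries, so this order tests nothing.

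Of the genes of glucose uptake and phosphorylation, SLC2A3 and HK2 were lower, and SLC2A1 and HK1 were not called. SLC2A3, a high-affinity glucose transporter, was at 0.238, 1.76 and 0 TPM in 3p loss, 0.338, 4.80 and 1.98 TPM in 3q gain and 7.08, 5.82 and 3.61 TPM in WT libraries. Its change was -2.07 ± 0.55 (limma adjusted p = 0.0332), a call lost in 6 other settings, among them 5 that left out a library of these groups (adjusted p up to 0.101). HK2, the hexokinase that is induced by HIF and by growth signals, was at 8.13, 6.59 and 6.74 TPM in 3p loss, 18.1, 11.6 and 10.8 TPM in 3q gain and 18.3, 31.6 and 25.1 TPM in WT libraries. The HK2 change was -1.65 ± 0.24 (adjusted p = 0.00248), and it was called under all 18 other settings. SLC2A1, the basal glucose transporter, was at 100.1, 63.9 and 96.7 TPM in 3p loss and 57.6, 93.1 and 84.4 TPM in WT libraries. The constitutive hexokinase HK1 was at 139.7, 122 and 142 TPM in 3p loss and 119, 65.6 and 137 TPM in WT libraries. HK1 lies on 10q, and its log2 fold change was 0.39 with the second WT library and 0.07 without it.

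No enzyme of upper glycolysis was called in 3p loss mRNA. PFKFB4, which makes and degrades the allosteric activator of phosphofructokinase, lies on 3p at chr3:48517684-48563136. It was at 7.21, 7.27 and 7.60 TPM in 3p loss, 7.28, 13.6 and 13.5 TPM in 3q gain and 10.6, 12.3 and 5.71 TPM in WT libraries. Its change of -0.28 ± 0.29 (limma adjusted p = 0.557) was not called, while the median of its tested neighbours within 5 Mb was -0.88. The platelet-type phosphofructokinase PFKP and the bifunctional enzyme PFKFB3 lie on 10p. PFKP was at 80.6, 169.8 and 83.8 TPM in 3p loss, 99.7, 199 and 185 TPM in 3q gain and 258, 153 and 227 TPM in WT libraries. PFKFB3 was at 7.11, 20.6 and 9.20 TPM in 3p loss, 9.92, 18.2 and 17.9 TPM in 3q gain and 20.5, 12.4 and 19.5 TPM in WT libraries. The same libraries were high and low for both genes and for the rest of 10p. The median of other 10p genes, as a log2 difference from the WT mean, was -0.67, 0.47 and -0.57 in the 3p loss libraries, 0.02, 0.38 and 0.35 in the 3q gain libraries, and 0.19, -0.61 and 0.42 in the WT libraries. PFKP had a log2 fold change of -0.98 ± 0.34 (adjusted p = 0.0853) over all libraries. It was -1.33 (adjusted p = 0.0284) without the second 3p loss library and -1.20 (adjusted p = 0.0694) without the second WT library. PFKFB3 had one of -0.57 ± 0.37 (adjusted p = 0.33) over all libraries. Without those libraries, in the same order, it was -0.99 (adjusted p = 0.0711) and -0.79 (adjusted p = 0.235). The copy number of 10p was not measured in these files, and its part in the PFKP and PFKFB3 values was not tested. The other 6 enzymes, GPI, PFKL, PFKM, ALDOA, ALDOC and TPI1, had fold changes between -0.44 and 0.24. ALDOA, the main aldolase here, was at 1947, 1533 and 2243 TPM in 3p loss and 1706, 2078 and 1397 TPM in WT libraries. TPI1, which interconverts the triose phosphates, was at 1569.8, 1089 and 1564 TPM in 3p loss and 1271, 1377 and 979 TPM in WT libraries. PFKL was at 148, 137 and 152 TPM in 3p loss and 124, 143 and 129 TPM in WT libraries. The groups overlapped for each of these genes.

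**Figure D3:**
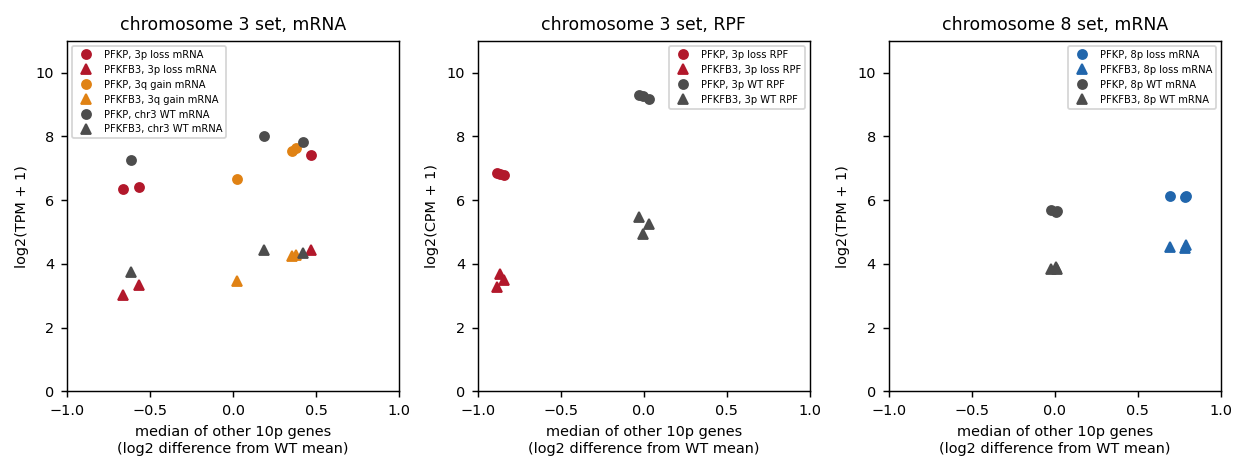
PFKP (circles) and PFKFB3 (triangles) in each library, as log2(TPM + 1) or log2(CPM + 1), against the median of the other 10p genes in the same library (log2 difference from the WT mean). The second 3p loss mRNA library, at 0.47, and the second WT mRNA library, at -0.61, lie apart from the others of their groups. The 3p loss RPF libraries all lie between -0.88 and -0.84 and the 8p loss libraries between 0.69 and 0.79.

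Lower glycolysis, from GAPDH to pyruvate kinase, showed no call in 3p loss mRNA. Log2 fold changes of the 6 genes ran from 0.03 for GAPDH to 0.82 for ENO2, the neuronal enolase. GAPDH was at 4836, 4069 and 5729 TPM in 3p loss and 4763, 5361 and 4131 TPM in WT libraries. PGK1 was at 439, 441 and 490.5 TPM in 3p loss and 498, 506 and 336 TPM in WT libraries. PKM, pyruvate kinase, was at 2058, 1642 and 2132 TPM in 3p loss and 1614, 1760.5 and 1377 TPM in WT libraries. The groups overlapped for all 3 genes. ENO1, the widely expressed enolase, was at 2999, 2498 and 2709 TPM in 3p loss and 2881, 3070.5 and 2040.2 TPM in WT libraries. PGAM1, phosphoglycerate mutase on 10q, was at 637, 726 and 735 TPM in 3p loss and 656, 325 and 514 TPM in WT libraries. Its log2 fold change was 0.54 over all libraries, 0.26 without the second WT library, and 0.77 (limma adjusted p = 0.0244) without the first. Summed over 16 enzymes, from the hexokinases to pyruvate kinase and LDHA, the level was 15963 ± 1883 TPM in 3p loss, 15054 ± 171 TPM in 3q gain and 15277 ± 2265 TPM in WT (SD, n = 3 each). The sums of 3p loss and WT differed by less than the SD of either group.

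Downstream of pyruvate, PDK1 and SLC16A3 were lower and LDHA was not called. PDK1, the kinase that switches off pyruvate dehydrogenase, was at 4.10, 6.69 and 5.68 TPM in 3p loss, 10.0, 11.1 and 7.69 TPM in 3q gain and 13.1, 16.4 and 14.8 TPM in WT libraries. Its change was -1.29 ± 0.20 (limma adjusted p = 0.00338). SLC16A3, a plasma membrane lactate exporter, was at 97.8, 96.7 and 166 TPM in 3p loss, 254, 177 and 174 TPM in 3q gain and 282, 402 and 226 TPM in WT libraries. Its change was -1.33 ± 0.27 (adjusted p = 0.0102). Both were called under every other setting tried. LDHA, the lactate dehydrogenase subunit that favours lactate formation, was at 797, 899 and 841 TPM in 3p loss, 1195, 1163 and 989 TPM in 3q gain and 1397, 1601 and 919 TPM in WT libraries. The 3p loss and WT libraries of LDHA did not overlap, but the fold change of -0.59 ± 0.18 had an adjusted p of 0.0595, and of 0.00644 without the third WT library.

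In 3q gain mRNA, where VHL was not called (0.00 ± 0.14), none of the 40 genes was higher and only VEGFA was lower (2.5% of the set). Over all genes tested, 5.27% were called, 2.6% higher and 2.67% lower. At an unadjusted p under 0.05 the set had 1 higher and 8 lower genes. VEGFA changed by -1.96 ± 0.43 (limma adjusted p = 0.0337), a call lost under 8 of 18 other settings, where its adjusted p reached 0.124. BNIP3 was at 91.3, 99.3 and 102 TPM in 3q gain cells, above every WT library. Its log2 fold change was 0.56 ± 0.15 (adjusted p = 0.0608). It was 0.49 (adjusted p = 0.142) without the second WT library and 0.73 (adjusted p = 0.0123) without the first. The fold change of HK2 was -0.85 ± 0.24 (adjusted p = 0.073), with a call only without the first WT or the first 3q gain library (adjusted p = 0.0405 and 0.0411). Without the second WT library, HK1 had -0.13 in place of 0.18, PGAM1 0.16 in place of 0.44 and P4HA1 0.07 in place of 0.14. PDK1 had -0.58 ± 0.20 and HIF1A -0.33 ± 0.11. PLOD2, on the gained arm, had a log2 fold change of 0.29 ± 0.25, beside a median of 0.54 for its tested neighbours. The comparisons of 3p loss and of 3q gain share their 3 WT libraries, so their values are given side by side and no likeness is drawn from them.

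Set directly against 3q gain, without the WT libraries, 3p loss had none of the 40 genes higher and 1 lower, P4HA1 (2.5% of the set). In this contrast 3.93% of all genes tested were called, 0.873% higher and 3.06% lower. At an unadjusted p under 0.05, none of the 40 was higher and 9 were lower. The change of P4HA1 was -0.76 ± 0.15 (limma adjusted p = 0.0215). With the replicate number as a block, it had an adjusted p of 0.0574, and it did not pass without the first 3p loss library or without the first or second 3q gain library (adjusted p = 0.0808 to 0.103). The median of the 40 fold changes was -0.18, against -0.01 over all genes tested. CA9 had a fold change of -1.92 ± 0.47 (adjusted p = 0.0567), and an adjusted p of 0.0349 with only these groups fitted, with no overlap between 1.93, 0.372 and 1.47 TPM in 3p loss and 4.50, 8.82 and 8.98 TPM in 3q gain. HK2, PDK1, SLC16A3, PLOD2, NDRG1, LDHA and BNIP3 did not overlap between these groups either. How many of all genes lacked overlap here was not counted. Fold changes were -0.80 ± 0.24 for HK2, -0.71 ± 0.20 for PDK1, -0.77 ± 0.27 for SLC16A3 and -0.92 ± 0.25 for PLOD2, with adjusted p from 0.0834 to 0.181. They were -0.615 for NDRG1, -0.40 for LDHA and -0.35 for BNIP3, with adjusted p from 0.293 to 0.527. VEGFA was -0.67 ± 0.43 here (adjusted p = 0.537). With the replicate block, the adjusted p was 0.532 for VEGFA and 0.0586 for PLOD2, and with the block in the 6 libraries of these groups alone, a fit chosen after seeing the data, it was 0.0489 for VEGFA and 0.0463 for PLOD2.

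Footprints of 3p loss cells were tested for 35 of the 40 genes. Of these, 10 were higher and 17 were lower than in 3p WT, or 77.1% called. Among all 11425 genes tested, 69.3% were called, 35.1% higher and 34.2% lower, so the share called was near that of all genes. The median of the 35 fold changes was -0.29, against 0.02 over all genes. Of the 11 genes lower in mRNA, 8 were also lower in footprints, P4HA1 was higher, and VEGFA and PDK1 were not called. Over all 906 genes lower in 3p loss mRNA and tested for footprints, 71.5% were lower and 8.83% higher. EGLN3, CA9, ANKRD37, PGAM1 and LDHA were not tested, since too few footprints were counted. LDHA was listed at 0 in all 6 libraries and PGAM1 had at most 8 footprints in a library, although both mRNAs were abundant. Among 1512 genes whose mRNA averaged 100 TPM or more, 76 had no footprint at all in these libraries. How the authors counted reads shared between gene copies is not stated in the labels.

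VHL footprints did not follow the mRNA in every library. They were at 62.7, 64.6 and 109.8 CPM (footprints scaled to library size) in 3p loss libraries, against 74.8, 80.4 and 82.4 CPM in 3p WT libraries. The first and second 3p loss libraries were below all WT libraries, and the third was above them. The log2 fold change was 0.02 ± 0.18 by edgeR (adjusted p = 0.933), while the tested neighbours of VHL had a median of -0.96. Without the third 3p loss library it was -0.31 (adjusted p = 0.0137). HIF1A footprints were at 337, 337 and 347 CPM in 3p loss and 458, 448 and 343 CPM in 3p WT libraries. The change of -0.29 ± 0.11 (edgeR adjusted p = 0.0287) was lost in 5 of 12 other settings. EPAS1 footprints were at 196, 186 and 207 CPM in 3p loss and 338, 353 and 360.1 CPM in 3p WT libraries, with no overlap. That change, -0.83 ± 0.08 (adjusted p = 2.52e-06), was called under every other setting. EGLN1 was higher, at 50.2, 52.8 and 63.4 CPM in 3p loss and 40.8, 38.0 and 40.8 CPM in 3p WT libraries (0.48 ± 0.12, adjusted p = 0.00398).

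The lowest footprint levels in 3p loss, relative to WT, were those of ANGPTL4, SLC2A3 and CA12. ANGPTL4 had 1 footprint in each 3p loss library, against 153, 112 and 188 in the 3p WT libraries. Scaled by library size, this is a ratio of 0.00558 (95% exact interval 0.00115 to 0.0164, counting error only), or 179-fold lower. The fitted value of -7.29 depends on the prior count. SLC2A3 was at 0.836, 0.176 and 0.833 CPM in 3p loss and 27.8, 26.4 and 33.7 CPM in 3p WT libraries (-5.41 ± 0.29, edgeR adjusted p = 1.32e-08). CA12 was at 1.88, 2.64 and 0.555 CPM in 3p loss and 17.4, 14.4 and 18.0 CPM in 3p WT libraries (-3.57 ± 0.37, adjusted p = 3.13e-06). All 3 genes were lower in mRNA as well, and none of their footprint groups overlapped.

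The other secreted and intracellular targets went both ways in footprints. VEGFA, lower in mRNA, was at 33.2, 34.3 and 37.0 CPM in 3p loss and 44.5, 42.5 and 37.2 CPM in 3p WT libraries (-0.24 ± 0.12, edgeR adjusted p = 0.105). ADM was higher, at 15.7, 14.9 and 11.9 CPM in 3p loss and 7.68, 4.49 and 6.70 CPM in 3p WT libraries (1.12 ± 0.23, adjusted p = 0.000696). NDRG1 was lower, at 71.9, 69.8 and 46.7 CPM in 3p loss and 194, 187 and 189.6 CPM in 3p WT libraries (-1.62 ± 0.15, adjusted p = 9.41e-07). The mitophagy receptor BNIP3 and the demethylase KDM3A, neither of them called in mRNA, were higher. BNIP3 was at 42.6, 53.0 and 30.5 CPM in 3p loss and 15.0, 14.4 and 13.0 CPM in 3p WT libraries (1.55 ± 0.20, adjusted p = 1.65e-05). KDM3A was at 105, 99.6 and 99.4 CPM in 3p loss and 68.2, 65.1 and 65.6 CPM in 3p WT libraries (0.61 ± 0.10, adjusted p = 0.000137).

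Of 5 collagen-modifying enzymes, 3 had more footprints in 3p loss and 1 had fewer, beside 35.1% higher and 34.2% lower of all genes. P4HA1 was at 93.9, 91.8 and 88.6 CPM in 3p loss and 61.2, 67.9 and 52.2 CPM in 3p WT libraries, a change of 0.60 ± 0.12 (edgeR adjusted p = 0.000591), opposite in sign to its mRNA. P4HA2 was at 228, 239 and 196 CPM in 3p loss and 157, 151 and 173 CPM in 3p WT libraries (0.46 ± 0.10, adjusted p = 0.00142). PLOD2 was at 148, 161 and 144 CPM in 3p loss and 105, 97.8 and 75.5 CPM in 3p WT libraries (0.70 ± 0.12, adjusted p = 0.000271). For these 3 genes no library of one group entered the range of the other. PLOD1 was lower, at 107, 106 and 126 CPM in 3p loss and 124, 134 and 159.8 CPM in 3p WT libraries with overlap (-0.29 ± 0.12, adjusted p = 0.0413), a call lost in 6 of 12 other settings. LOX was not called (-0.13 ± 0.25).

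In the upper part of glycolysis, footprints of 6 of 9 genes were lower and 1 was higher, beside 34.2% lower and 35.1% higher of all genes. Both hexokinases were lower. HK2 was at 11.1, 9.50 and 14.7 CPM in 3p loss and 52.3, 54.8 and 71.0 CPM in 3p WT libraries (-2.29 ± 0.18, edgeR adjusted p = 3.32e-07). HK1, whose mRNA was not called, was at 266, 259 and 255 CPM in 3p loss and 417, 414 and 462 CPM in 3p WT libraries (-0.73 ± 0.08, adjusted p = 6.98e-06). Phosphofructokinase commits sugar to glycolysis, and its platelet form PFKP was at 114, 113 and 108 CPM in 3p loss and 581, 618 and 634 CPM in 3p WT libraries (-2.45 ± 0.09, adjusted p = 5.48e-10). The muscle form PFKM was at 107, 109 and 100.3 CPM in 3p loss and 211, 220.5 and 218 CPM in 3p WT libraries (-1.04 ± 0.09, adjusted p = 6.74e-07). The liver form PFKL (0.11 ± 0.10) and the transporter SLC2A1 (0.03 ± 0.10) were not called. PFKFB3 was at 8.78, 11.8 and 10.3 CPM in 3p loss and 36.7, 29.6 and 43.5 CPM in 3p WT libraries (-1.83 ± 0.18, adjusted p = 1.91e-06). The tested neighbours of PFKP and of PFKFB3 had medians of -1.06 and -1.03, and every 3p loss footprint library was low over 10p. PFKFB4, on the lost arm, was at 7.32, 7.21 and 7.49 CPM in 3p loss and 20.5, 22.2 and 19.2 CPM in 3p WT libraries (-1.48 ± 0.17, adjusted p = 5.88e-06), beside a neighbours' median of -1.11.

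The rest of the pathway went both ways. ALDOC, the aldolase of brain and other tissues, was at 15.1, 13.6 and 12.7 CPM in 3p loss and 28.1, 31.0 and 31.3 CPM in 3p WT libraries (-1.14 ± 0.15, edgeR adjusted p = 1.71e-05). The isomerase GPI was at 270.5, 284 and 243 CPM in 3p loss and 318, 327 and 373 CPM in 3p WT libraries (-0.35 ± 0.10, adjusted p = 0.00523). TPI1 was higher, at 320.3, 320.4 and 224 CPM in 3p loss and 193, 179 and 168 CPM in 3p WT libraries (0.68 ± 0.13, adjusted p = 0.00051). GAPDH was higher too, at 1219, 1262 and 1072 CPM in 3p loss and 690.5, 712 and 772 CPM in 3p WT libraries (0.71 ± 0.09, adjusted p = 1.21e-05). PGK1 was at 594, 594 and 446 CPM in 3p loss and 471, 449.6 and 381 CPM in 3p WT libraries (0.33 ± 0.12, adjusted p = 0.0267), with overlapping groups and a call lost in 4 of 12 other settings. ENO1 was lower, at 2221, 2248 and 1841 CPM in 3p loss and 2749.5, 2740.3 and 2588 CPM in 3p WT libraries (-0.36 ± 0.09, adjusted p = 0.00245). ALDOA (-0.05), ENO2 (0.28) and PKM (-0.11) were not called. Summed over 14 enzymes, the 16 summed for mRNA less LDHA and PGAM1, footprints were at 8297 ± 624 CPM in 3p loss and 9312 ± 219 CPM in 3p WT (SD, n = 3 each). As a share of each library's footprints, without the TMM scaling, this was 0.869 ± 0.055% in 3p loss and 0.886 ± 0.020% in 3p WT. These shares differed by less than the SD of either group. With the TMM scaling, every 3p loss sum (7581.7 to 8726.3 CPM) lay below every 3p WT sum (9168.4 to 9564.6 CPM), so the reading depends on the scaling. At the pathway's exit, SLC16A3 was at 58.1, 66.0 and 66.1 CPM in 3p loss and 263, 269.7 and 347 CPM in 3p WT libraries (-2.20 ± 0.12, adjusted p = 1.78e-08), while PDK1 was not called (-0.32 ± 0.20).

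Translational efficiency, the footprint change beyond the mRNA change, was tested as the interaction of assay and genotype for 35 of the 40 genes. It takes the footprint cells labelled 3p WT and the mRNA cells labelled Chr3 WT as the same genotype, which the labels do not state. It was higher for 8 and lower for 7 in 3p loss, or 42.9% called, against 36% of all 10107 genes tested (18.2% higher and 17.9% lower). The largest positive interaction was that of VEGFA, 2.39 ± 0.49 (limma adjusted p = 0.00244), whose mRNA was lower while its footprints were not called. PLOD2 (1.34 ± 0.28), BNIP3 (1.27 ± 0.27), P4HA1 (1.22 ± 0.20), PDK1 (1.04 ± 0.29), P4HA2 (0.82 ± 0.25), GAPDH (0.67 ± 0.19) and KDM3A (0.56 ± 0.19) were also positive. Those of PDK1, P4HA2, GAPDH and KDM3A did not pass when footprint replicates 1 and 2 of each group were summed (adjusted p = 0.0833 to 0.129). Negative interactions were called for SLC2A3 (-2.18 ± 0.50), ANGPTL4 (-2.07 ± 0.40), PFKP (-1.46 ± 0.34), HK1 (-1.11 ± 0.28), PFKFB4 (-1.10 ± 0.31), PFKM (-1.04 ± 0.16) and GPI (-0.59 ± 0.19). That of SLC2A3 did not pass at a pseudocount of 0.1 (-1.79, adjusted p = 0.25). The ANGPTL4 value rests on 1 footprint in each 3p loss library. That of PFKFB4 did not pass with those replicates summed, and those of GPI and KDM3A did not pass in 9 and 11 of 18 other settings. The mRNA and footprint libraries were separate samples, and 10p differed in level between 3p loss libraries in mRNA but not in footprints. Without the second WT mRNA library the interactions were -0.80 for HK1, 1.29 for P4HA1 and 1.33 for BNIP3, all called (adjusted p = 0.000729 to 0.00345). The neighbours' median of PFKP was -0.92. VHL had an interaction of 0.87 ± 0.25 (adjusted p = 0.0176).

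**Figure D4:**
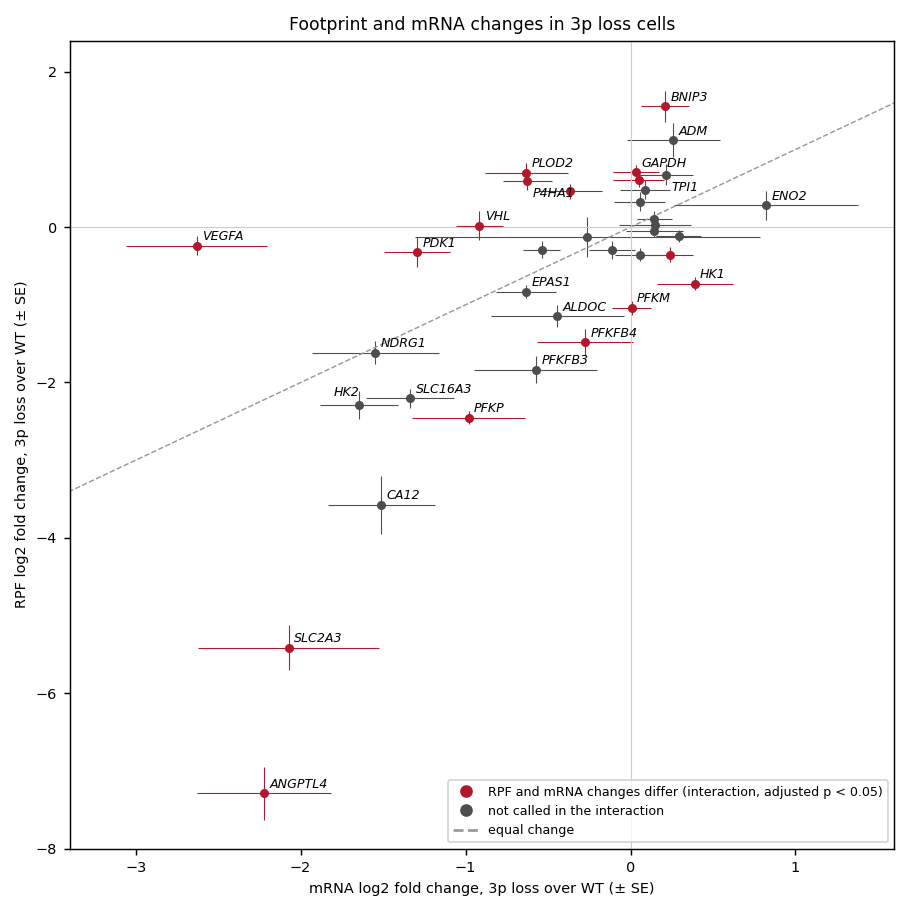
Log2 fold change of footprints (vertical axis) against that of mRNA (horizontal axis), 3p loss over WT, for the 35 genes tested in both and VHL. Points carry the SE of each value, red marks an interaction at adjusted p under 0.05 and the dashed line marks equal change. ANGPTL4 and SLC2A3 lie far below the line, and VEGFA, PDK1, P4HA1 and PLOD2 lie above it.

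In 8p loss cells, a different arm change with VHL at 32.8, 33.8 and 32.1 TPM against 30.6, 31.7 and 30.4 TPM in 8p WT cells, 16 of 39 tested genes were higher and 16 were lower. This is 82.1% called, against 69.1% of all 12302 genes tested, of which 33.1% were higher and 36% lower. The median of the 39 fold changes was -0.05, against -0.01 over all genes. Of the 11 genes lower in 3p loss mRNA, 8 were higher in 8p loss, HK2 was lower, and CA12 and PDK1 were not called. Among all 982 genes lower in 3p loss mRNA and tested here, 45% were higher and 27.5% lower. The tables of chromosome 3 and chromosome 8 were normalized apart, so the difference between both losses was not tested.

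HIF1A was at 346, 345 and 347 TPM in 8p loss and 322, 324 and 323 TPM in 8p WT libraries (0.10 ± 0.02, limma adjusted p = 0.00559). EPAS1 was at 267, 259.8 and 256 TPM in 8p loss and 137, 134 and 137 TPM in 8p WT libraries (0.93 ± 0.03, adjusted p = 5.92e-07). Both were higher, as was EGLN1, at 26.9, 32.5 and 28.1 TPM in 8p loss and 23.6, 25.1 and 24.3 TPM in 8p WT libraries (0.25 ± 0.07), although the EGLN1 call was lost without the first or the third 8p WT library (adjusted p = 0.0609 and 0.0525). CA9 was lower, at 2.07, 1.18 and 0.687 TPM in 8p loss and 5.44, 5.60 and 4.71 TPM in 8p WT libraries (-1.48 ± 0.21, adjusted p = 0.000691), and CA12 was not called (-0.06 ± 0.05). VEGFA was higher, at 115, 122 and 119 TPM in 8p loss and 77.2, 74.7 and 78.1 TPM in 8p WT libraries (0.62 ± 0.03, adjusted p = 7.71e-06). ANGPTL4 was higher as well, at 17.1, 19.0 and 13.4 TPM in 8p loss and 5.08, 4.03 and 4.36 TPM in 8p WT libraries (1.66 ± 0.13, adjusted p = 4.09e-05). ADM was lower, at 18.0, 17.6 and 18.2 TPM in 8p loss and 51.2, 47.4 and 48.9 TPM in 8p WT libraries (-1.41 ± 0.04, adjusted p = 5.4e-07). NDRG1, which lies on the other arm of chromosome 8, was at 285, 285 and 291 TPM in 8p loss and 75.2, 78.6 and 78.2 TPM in 8p WT libraries (1.88 ± 0.03, adjusted p = 8.83e-08), while its tested neighbours within 5 Mb had a median of 0.01. No library of one group entered the range of the other for any of these called genes.

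The collagen enzymes went both ways in 8p loss. P4HA1 was at 66.3, 70.5 and 72.0 TPM in 8p loss and 40.1, 44.5 and 43.0 TPM in 8p WT libraries (0.70 ± 0.05, limma adjusted p = 2.49e-05). PLOD1 (0.56 ± 0.03) and PLOD2 (0.53 ± 0.04) were higher too, and P4HA2 was lower (-0.24 ± 0.04). LOX was lower, at 22.5, 23.8 and 21.4 TPM in 8p loss and 78.0, 79.5 and 78.1 TPM in 8p WT libraries (-1.76 ± 0.04, adjusted p = 3.56e-07). Beside these, the summed epithelial markers were lower in 8p loss, and their part in the LOX value was not tested. Of the intracellular targets, KDM3A was higher (0.15 ± 0.05), a call lost in 4 of 14 other settings, and BNIP3 and ANKRD37 were not called.

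Of the 19 genes from glucose transport to pyruvate kinase, 11 were lower and 5 were higher in 8p loss, beside 36% lower and 33.1% higher of all genes. SLC2A3 was at 31.7, 32.2 and 33.0 TPM in 8p loss and 7.22, 6.47 and 6.73 TPM in 8p WT libraries (2.09 ± 0.05, limma adjusted p = 3.3e-07). SLC2A1 was lower, at 78.6, 76.9 and 74.5 TPM in 8p loss and 93.2, 93.6 and 93.8 TPM in 8p WT libraries (-0.28 ± 0.03). HK1 was higher, at 97.2, 99.1 and 97.3 TPM in 8p loss and 78.7, 77.4 and 74.0 TPM in 8p WT libraries (0.35 ± 0.03), and HK2 was lower (-0.14 ± 0.04), a call lost in 4 of 14 other settings. PFKP (0.46 ± 0.03) and PFKFB3 (0.68 ± 0.04) were higher, beside medians of 0.70 and 0.70 for their tested neighbours on 10p. PFKFB3 was at 22.2, 21.6 and 23.2 TPM in 8p loss and 13.4, 13.8 and 13.4 TPM in 8p WT libraries. PFKL was higher (0.39 ± 0.07) and PFKM lower (-0.58 ± 0.05), while PFKFB4 was not called.

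Of all 9 upper glycolysis genes, 5 were lower and 3 were higher in 8p loss. Of 6 lower glycolysis genes, 4 were lower and 0 were higher, beside 36% lower and 33.1% higher of all genes. Among the phosphofructokinases and their regulators, PFKL, PFKP and PFKFB3 were higher, PFKM was lower and PFKFB4 was not called. GAPDH and ENO2 were not called. PGK1, which makes the first ATP of the pathway, was at 149, 148 and 156 TPM in 8p loss and 322, 325 and 318 TPM in 8p WT libraries (-1.09 ± 0.03, limma adjusted p = 3.89e-07). PGK1 lies on the X chromosome, where its tested neighbours had a median of -0.51. ALDOC was at 14.9, 17.9 and 19.7 TPM in 8p loss and 57.4, 55.8 and 56.9 TPM in 8p WT libraries (-1.65 ± 0.09). ENO1 was at 843, 828 and 891 TPM in 8p loss and 1251, 1293 and 1284 TPM in 8p WT libraries (-0.58 ± 0.04). PKM was at 530.1, 532 and 550.5 TPM in 8p loss and 765, 772 and 768 TPM in 8p WT libraries (-0.51 ± 0.03). The other lower enzymes were GPI (-0.55), ALDOA (-0.49), TPI1 (-0.49) and PGAM1 (-0.39). The 16 enzymes summed to 8171 ± 205 TPM in 8p loss and 9876 ± 154 TPM in 8p WT (SD, n = 3 each), a drop larger than the spread of either group. LDHA was lower, at 454, 449 and 473 TPM in 8p loss and 564, 580.5 and 560.3 TPM in 8p WT libraries (-0.31 ± 0.03). SLC16A3 was higher, at 172, 164 and 137 TPM in 8p loss and 107, 98.6 and 89.6 TPM in 8p WT libraries (0.67 ± 0.10), and PDK1 was not called (0.16 ± 0.08).

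**Figure D5:**
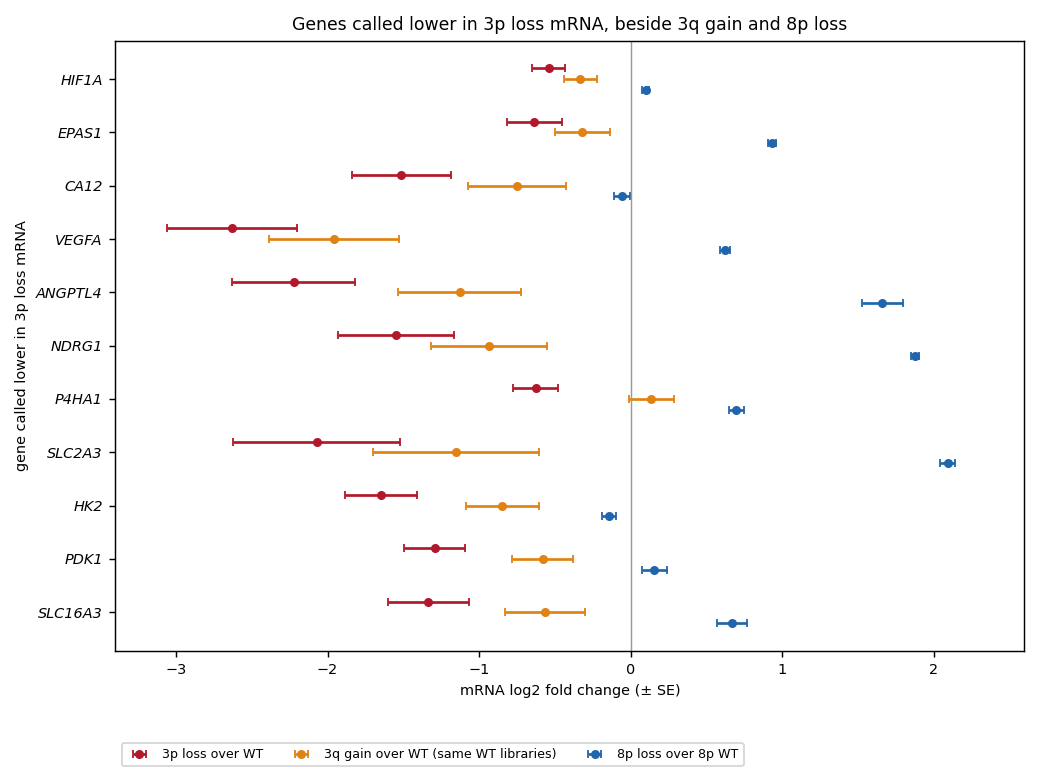
mRNA log2 fold change (horizontal axis, with SE) of the 11 genes lower in 3p loss, in 3p loss, 3q gain and 8p loss cells, each over its own WT. The 3p loss and 3q gain values share the same WT libraries. In 8p loss, 8 of the 11 genes were called higher, and PDK1 also lies to the right of 0 but was not called.

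Genes of the same pathways outside the set were read from 3 further lists. Of 11 tested regulators of HIF, 3 were lower and none was higher in 3p loss mRNA, beside 8.8% lower and 6.17% higher of all genes (unadjusted p under 0.05 in 2 higher and 3 lower). They were VHL, the coactivator gene EP300 (-0.86 ± 0.18, limma adjusted p = 0.0126) and SIAH2, a ubiquitin ligase that acts on prolyl hydroxylases (-0.63 ± 0.18, adjusted p = 0.0463). Of 21 other HIF targets tested, 5 were lower and none was higher, beside the same shares of all genes (3 higher and 8 lower at an unadjusted p under 0.05), with a median log2 fold change of -0.40. BHLHE40, a transcriptional repressor encoded on 3p, was at 17.2, 22.0 and 27.4 TPM in 3p loss and 113, 149 and 111 TPM in WT libraries (-2.44 ± 0.18). The stress-induced mTOR inhibitor DDIT4 changed by -1.05 ± 0.27 and the cytokine MIF by -0.65 ± 0.16. DDIT4 footprints went the other way, by 0.45 ± 0.11 (edgeR adjusted p = 0.00246).

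Of 15 other enzymes of pyruvate and sugar use tested in 3p loss mRNA, 4 were higher and 2 were lower, beside 6.17% higher and 8.8% lower of all genes. MPC1, a subunit of the mitochondrial pyruvate carrier, was at 106, 98.0 and 97.2 TPM in 3p loss and 48.8, 57.8 and 61.5 TPM in WT libraries (0.83 ± 0.13, limma adjusted p = 0.00297). Its footprints were higher as well (1.67 ± 0.15, edgeR adjusted p = 1.01e-06). PDHA1, the alpha subunit of pyruvate dehydrogenase, was higher in mRNA (0.34 ± 0.10), and PDHB, its partner encoded on 3p, was lower (-0.64 ± 0.13). The lactate and pyruvate carrier SLC16A1 was lower (-0.59 ± 0.12). In 3q gain mRNA, 1 regulator (EP300), 2 other targets (STC2 among them) and 1 enzyme (PFKFB2) were lower, and none of the 3 lists had a higher gene, beside 5.27% of all genes called. In 3p loss footprints, 13 of 14 regulators, 17 of 23 other targets and 7 of 15 enzymes were called, beside 69.3% of all genes. In 8p loss mRNA, 9 of 14 regulators, 19 of 23 other targets and 12 of 16 enzymes were called, beside 69.1% of all genes.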

How the data were processed

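Per the labels' protocols, ribosomes were held with cycloheximide for 5 minutes before RPF preparation, and chromosome 3 mRNA was read at 100 bp. The authors deposited whole-number counts of footprints per gene, not normalized, and normalized mRNA values. The column sums of these deposited mRNA values are near those of TPM, and they are called TPM throughout, though FPKM could not be told apart. GRCh38 is the build named in the submitters' processing notes, and the aligner and counter are not given in the sources used here. Of the RPF table's 20915 names, the 1061 named by transcript (0.432 to 0.568% of counts) were left out. Names repeated in the chromosome 8 mRNA values (30 entries) were summed. RefSeq gene positions (GRCh38) were matched by symbol.

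mRNA levels as log2(TPM + 1) were fitted in limma 3.58.1 under R 4.3.3, with its variance trend, where a gene averaged 1 TPM or more over the libraries fitted, all 9 chromosome 3 libraries together and the 6 chromosome 8 libraries apart. Fold changes on this scale understate the change of low genes. RPF counts were tested with edgeR 4.0.16 (quasi-likelihood F test, TMM, filterByExpr), and the SE printed is the fold change divided by the square root of F. Translational efficiency was the assay-by-genotype interaction in limma, with footprints as log2(CPM + 1) beside the mRNA values. Calls were made at a Benjamini-Hochberg adjusted p under 0.05 over all genes tested. With 3 libraries a group, an exact permutation of libraries cannot go below p = 0.1, so none is given. The labels call replicates biological but do not say what they share, so p-values measure the spread between these samples.

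RPF replicates 1 and 2 of each group had a chi-square per degree of freedom of 1.38 (3p loss) and 1.34 (WT), lower than other pairs (6.9 to 12.4) but beyond sampling noise, and were kept apart. Same-numbered 3p loss and 3q gain mRNA libraries deviated together (correlations 0.12, 0.158 and 0.143, each library best with its own number), so the numbers were taken to pair these samples, from the data alone, and blocked values stand beside the results they change. The 40 genes, their roles and the other lists were chosen with earlier results of these data known. All 40 are described by role, and up to 4 called genes with the highest mean per other list are named, with STC2 and PFKFB2 named as the few called in 3q gain, and 1 gene that this rule names is not reported here. Alternatives covered the test, scaling, filter, pseudocount, DESeq2 1.42.0 for RPF counts, replicate block, summed replicates and leaving out each library. Tests were tried on simulated data with changes of 1.5-fold and 2-fold. In 3p loss mRNA, 13.1% and 43.9% of these were called. The shares were 14.1 to 18% and 46 to 57.7% in the other chromosome 3 contrasts. They were 43% and 88.7% in footprints, 78.6% and 90% in 8p loss, and 3.03% and 29% in translational efficiency. False calls were 11.1% of calls in translational efficiency and 2.63 to 5.65% elsewhere. A gene not called may therefore still have changed.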

Additional observations from a re-analysis of the deposited data

Results flagged for a closer look

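For 8 genes, every 3p loss mRNA library lay below every WT library and every 8p loss library lay above every 8p WT library. Opposite calls were common over all genes. Of all 982 genes called lower in 3p loss mRNA and tested in 8p loss, 45% were called higher there. How many of all genes also lacked overlap was not counted. The log2 fold change was -0.54 in 3p loss and 0.10 in 8p loss for HIF1A. EPAS1 had -0.64 in 3p loss and 0.93 in 8p loss. For VEGFA it was -2.63 in 3p loss and 0.62 in 8p loss, and for ANGPTL4 -2.22 in 3p loss and 1.66 in 8p loss. NDRG1 had -1.55 in 3p loss and 1.88 in 8p loss, and P4HA1 -0.63 in 3p loss and 0.70 in 8p loss. SLC2A3 had -2.07 in 3p loss and 2.09 in 8p loss, and SLC16A3 -1.33 in 3p loss and 0.67 in 8p loss. The 3p loss mRNA calls of EPAS1, NDRG1, P4HA1 and SLC2A3 were each lost under some other settings, as given above. The difference between both losses was not tested, since the tables were normalized apart.

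P4HA1 moved in opposite directions by assay, with lower mRNA and more footprints in 3p loss, and the interaction was 1.22 (limma adjusted p = 0.000712).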

How the results depend on the processing

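Over single genes, 3728 alternative values kept the main result, called or not called, 91 lost the call and 37 gained one. A value called under neither setting counted as kept even where its sign changed. With a call in at least 1 setting, 1 value reversed. This was VHL footprints without the third 3p loss library (-0.31, where leaving out other libraries gave up to 0.16). Calls that held under every alternative, VHL included, were 7 of 12 in 3p loss mRNA, 0 of 1 in 3q gain, 1 of 2 in 3p loss against 3q gain, 24 of 27 in footprints, 9 of 16 in translational efficiency and 29 of 32 in 8p loss. The count of the set lower in 3q gain was 0 with no filter and 0 with the groups compared alone. In 3p loss against 3q gain, the count lower was 0 with the replicate block, 2 with the groups compared alone, 2 (VEGFA and PLOD2, adjusted p = 0.0489 and 0.0463) with the block in those libraries alone, which was chosen after seeing the data, and 0 at a minimum of 2-fold. Elsewhere the replicate block moved no count of the set, although in 3p loss mRNA EPAS1 was lost (adjusted p = 0.0623) and LDHA gained (adjusted p = 0.0445), and same-numbered libraries did not all deviate together. A minimum of 2-fold left 2 higher and 11 lower in footprints and 3 higher and 5 lower in 8p loss. Summing RPF replicates 1 and 2 left 4 of the set higher in translational efficiency. Leaving out 1 library at a time gave 0 to 1 higher and 6 to 11 lower in 3p loss mRNA, 0 to 1 higher and 0 to 2 lower in 3q gain, 0 higher and 0 to 2 lower in 3p loss against 3q gain, 9 to 10 higher and 15 to 17 lower in footprints, 6 to 9 higher and 6 to 11 lower in translational efficiency, and 14 to 16 higher and 15 to 17 lower in 8p loss. The cause of these moves was not tested. Footprint depth limits ANGPTL4 and the 5 genes not tested.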
